A study of Mus musculus with 21 samples.

Results

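Endoplasmic reticulum (ER) chaperones and regulators of the unfolded protein response were followed in Nestin-EGFP-positive cells of mice exposed to valproic acid (VPA) before birth. The 10 genes, Hspa5, Hsp90b1, Calr, Pdia4, Pdia6, Herpud1, Xbp1, Atf6, Atf4 and Ddit3, were chosen by symbol from the 24322 symbols listed for each of 21 RNA-seq libraries. Earlier results of these data were known when they were chosen. All 10 had values in every table and passed the filter on low values in every fit.

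VPA is an antiepileptic drug that also inhibits histone deacetylases. All mice were C57BL/6 and carried a Nestin-EGFP transgene, in which Nestin regulatory sequence drives a green fluorescent protein, and GFP-positive cells were taken by flow cytometry. Nestin is made by neural stem and progenitor cells and also by cells of blood vessel walls. The VPA groups were born to mothers given VPA by mouth at 300 mg/kg/day on embryonic days 12, 13 and 14, and the control groups to mothers given methylcellulose on those days. At embryonic day 15 (E15) the groups VPA E15 and Control E15 came from forebrain, and at postnatal day 5 (P5) the groups VPA P5 and Control P5 came from the dentate gyrus of the hippocampus. At 12 weeks the dentate gyrus groups were VPA+Run, which was exposed to VPA and later given voluntary exercise, VPA, and Control. No control group had exercise, so running was measured only after VPA. Each group had 3 libraries of polyadenylated RNA (n = 3), and nothing in the labels says whether these came from separate animals or litters, so p-values measure the spread between libraries, which may be technical.

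The ER folds secreted and membrane proteins. When unfolded proteins accumulate there, membrane sensors start the unfolded protein response: IRE1 splices the mRNA of Xbp1, PERK slows translation while favouring that of Atf4, and ATF6 is cut to release a transcription factor. Spliced XBP1 and ATF6 raise the genes of lumenal chaperones, and ATF4 raises Ddit3, which encodes CHOP. Cells that divide and secrete also use these chaperones at rest. The values below are mRNA per gene in FPKM (fragments scaled to transcript length and library size, which allows genes to be compared per length), and they contain neither Xbp1 splicing nor ATF6 cleavage.

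Nes itself lay between 7.86 and 20.1 FPKM in the 21 libraries, and the stem cell factor Sox2 between 24.5 and 174 FPKM. Markers of other cell types were present too. In Control E15 stem and progenitor markers summed to 653 to 780 FPKM and newborn neuron markers to 3834 to 4681 FPKM. In Control P5 these sums were 2719 to 3115 and 2279 to 2631 FPKM. In Control 12w stem and progenitor markers summed to 1019 to 1938 FPKM and pericyte markers to 1059 to 2266 FPKM. The spread between libraries depended on age. On the log2(FPKM + 1) scale the median gene had an SD within a group of 0.112 in VPA E15 and 0.114 in Control E15, 0.0907 in VPA P5 and 0.092 in Control P5, and 0.5 in VPA+Run, 0.354 in VPA and 0.335 in Control at 12 weeks. One E15 library stood apart: VPA E15 replicate 3 had 9662 FPKM of the choroid plexus gene Ttr, against 8.75 to 131 FPKM in the other 5 libraries of that age. The 12-week tables listed 517 to 1677 genes between 0 and 1 FPKM, against 3930 to 4319 at P5 and 3409 to 4565 at E15, and VPA+Run replicate 3 listed 172 of the 3666 genes averaging at least 30 FPKM at 0.

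The ER chaperone promoters are the textbook case of the ER stress response element (ERSE), which ATF6 and XBP1 bind together with the factor NF-Y. RefSeq promoter windows (GRCm38.p6) were found for 9 of the 10 genes, the exception being Atf6, and the 250 bases before each start site were searched on both strands for exact matches. ERSE, which is CCAAT, 9 bases of any kind and CCACG, was present in 4 of the 9, Hspa5, Hsp90b1, Calr and Pdia6, against 0.13% of 27025 genes. ERSE-II, which is ATTGG, 1 base of any kind and CCACG, was present in Herpud1 and in 0.037% of all genes. The 5 windows are shown because they hold these matches, which are in capitals. The Hspa5 window is chr2:34771840-34772089, plus strand. That of Hsp90b1 is chr10:86705445-86705694, minus strand. That of Calr is chr8:84846932-84847181, minus strand. That of Pdia6 is chr12:17266339-17266588, plus strand. That of Herpud1 is chr8:94386179-94386428, plus strand. Each is written 5′ to 3′ on the strand of its gene.
Hspa5: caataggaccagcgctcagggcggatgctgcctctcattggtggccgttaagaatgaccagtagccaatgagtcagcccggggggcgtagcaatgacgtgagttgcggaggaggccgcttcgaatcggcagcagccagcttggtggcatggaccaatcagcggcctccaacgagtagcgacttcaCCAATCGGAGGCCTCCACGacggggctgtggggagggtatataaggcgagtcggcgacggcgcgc
Hsp90b1: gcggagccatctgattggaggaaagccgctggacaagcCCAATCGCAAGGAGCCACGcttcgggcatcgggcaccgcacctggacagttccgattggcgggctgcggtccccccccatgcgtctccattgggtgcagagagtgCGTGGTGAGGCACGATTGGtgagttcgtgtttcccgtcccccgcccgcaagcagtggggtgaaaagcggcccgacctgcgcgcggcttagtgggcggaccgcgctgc
Calr: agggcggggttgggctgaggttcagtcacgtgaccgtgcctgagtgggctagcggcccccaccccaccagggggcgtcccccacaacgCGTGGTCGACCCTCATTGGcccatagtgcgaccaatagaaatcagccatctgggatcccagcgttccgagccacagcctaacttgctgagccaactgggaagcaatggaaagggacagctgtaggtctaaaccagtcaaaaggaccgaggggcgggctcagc
Pdia6: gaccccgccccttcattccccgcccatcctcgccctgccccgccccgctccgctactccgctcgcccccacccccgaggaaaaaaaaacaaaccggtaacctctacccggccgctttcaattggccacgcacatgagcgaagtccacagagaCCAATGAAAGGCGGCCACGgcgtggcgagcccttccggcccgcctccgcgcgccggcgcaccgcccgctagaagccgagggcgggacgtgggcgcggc
Herpud1: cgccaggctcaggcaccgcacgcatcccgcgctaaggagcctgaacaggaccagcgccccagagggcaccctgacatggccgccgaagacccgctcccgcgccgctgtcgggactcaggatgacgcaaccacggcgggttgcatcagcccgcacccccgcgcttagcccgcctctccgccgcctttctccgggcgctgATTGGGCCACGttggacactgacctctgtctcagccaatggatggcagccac

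Hsp90b1 alone held a pair of ERSE matches, on opposite strands, at bases -212 to -194 and -107 to -89 from the start site. The Hspa5 match lay at -65 to -47 and the Pdia6 match at -98 to -80, both on the gene's own strand, while that of Calr lay at -162 to -144 on the opposite strand. The Herpud1 ERSE-II lay at -52 to -42. The core of the XBP1 site, TGACGTGG, had no match in the 9 windows and was present in 0.603% of all genes. The ATF4 and CHOP composite element, TGATGNAAN, was matched in Herpud1 at -113 to -105 on the opposite strand and in 3.89% of all genes. The motifs did not overlap each other in these windows, and a match is a description of the letters only.

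**Figure D1:**
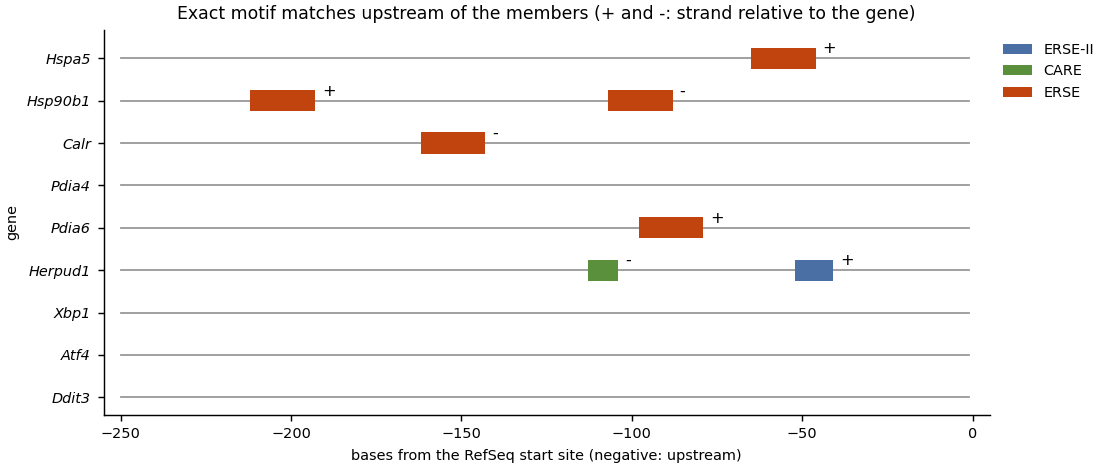
Exact motif matches in the 250 bases before the RefSeq start site of 9 genes. The x axis is the distance in bases from the start site, each row is a gene, and boxes mark ERSE (red), ERSE-II (blue) and the ATF4 and CHOP composite element CARE (green) with the strand relative to the gene. ERSE lies in Hspa5, Hsp90b1, Calr and Pdia6, and ERSE-II in Herpud1.

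Levels differed widely between the genes. Calr, a lectin chaperone that binds calcium and newly made glycoproteins (chr8:84841850-84846934, minus strand, GENCODE vM21 on GRCm38), was the most abundant in controls, with 239 ± 27.4 FPKM at E15, 265 ± 5.92 at P5 and 411 ± 49.4 at 12 weeks (SD, n = 3 each). Hspa5, the Hsp70 of the ER lumen known as BiP, which also holds the stress sensors inactive (chr2:34771970-34777547, plus strand), had 104 ± 10.4, 155 ± 3.79 and 282 ± 24.5 FPKM in Control E15, P5 and 12w. Hsp90b1, the Hsp90 of the ER known as GRP94 (chr10:86690209-86705509, minus strand), had 114 ± 8.82, 149 ± 0.875 and 243 ± 21.1 FPKM in these groups. These 3 chaperones were thus highest in the adult controls, with no overlap between Control 12w and the younger control libraries, while 18.4% of all genes had every Control 12w library above every Control P5 library. The protein disulphide isomerases, which form and exchange disulphide bonds, were steadier. Pdia6 (chr12:17266545-17284770, plus strand) had 125 ± 7.66, 133 ± 1.79 and 170.4 ± 22.0 FPKM, and Pdia4 (chr6:47796141-47813430, minus strand) had 40.8 ± 3.51, 44.8 ± 2.65 and 42.1 ± 10.2 FPKM in Control E15, P5 and 12w. Herpud1, a membrane protein of ER-associated degradation (chr8:94386438-94395377, plus strand), had 19.0 ± 1.40, 25.5 ± 1.61 and 35.6 ± 7.95 FPKM.

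Among the transcription factors, Atf4 (chr15:80255184-80257541, plus strand) was the most abundant and had its own order of ages, with 130.3 ± 4.84 FPKM in Control E15, 213 ± 6.67 in Control P5 and 162 ± 21.8 in Control 12w. Xbp1 (chr11:5520659-5525893, plus strand) had 31.8 ± 2.64, 37.6 ± 4.13 and 60.3 ± 0.496 FPKM. Ddit3 (chr10:127290774-127296288, plus strand) had 26.2 ± 2.17, 32.8 ± 1.65 and 67.8 ± 20.1 FPKM. Atf6 (chr1:170704674-170867771, minus strand) was the scarcest of the 10, with 6.35 ± 0.435, 8.58 ± 0.201 and 9.33 ± 1.54 FPKM. Ddit3 overlaps Mars on the opposite strand, Pdia6 overlaps Atp6v1c2 and Hsp90b1 overlaps 1810014B01Rik. Whether counting used strand is not given in the sources used here. Mars had 23.9 to 44.1 FPKM over the libraries. In VPA+Run 12w replicate 3 Mars had 23.9 FPKM while Ddit3 was listed at 0. The part of Mars reads in the Ddit3 values of the other libraries was not tested. Atp6v1c2 had at most 1.41 FPKM in any library, far below Pdia6. The level of 1810014B01Rik was not looked at, and its part in the Hsp90b1 values was not tested.

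Ordered by mean over all 7 groups, the highest group was VPA 12w for Hspa5, Hsp90b1, Calr, Pdia4, Herpud1, Atf6 and Atf4, Control 12w for Pdia6 and Ddit3, and VPA+Run 12w for Xbp1. The lowest group was VPA P5 for Hsp90b1, Calr, Pdia4 and Xbp1, VPA E15 for Pdia6, Ddit3 and Atf6, and Control E15 for Hspa5, Herpud1 and Atf4. The ratio of the highest to the lowest group mean ran from 1.37 for Pdia4 to 3.92 for Hspa5. Most neighbours in these orders overlapped. Neighbours whose libraries did not overlap were VPA+Run 12w and Control P5 for Hspa5 and Hsp90b1, Control P5 and Control E15 for Xbp1 and Ddit3, VPA P5 and Control E15 for Atf6, Control P5 and VPA E15 for Herpud1, and for Atf4 both Control P5 and VPA E15 and VPA P5 and Control E15. For Calr, Pdia4 and Pdia6 no pair of neighbours was apart.

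**Figure D2:**
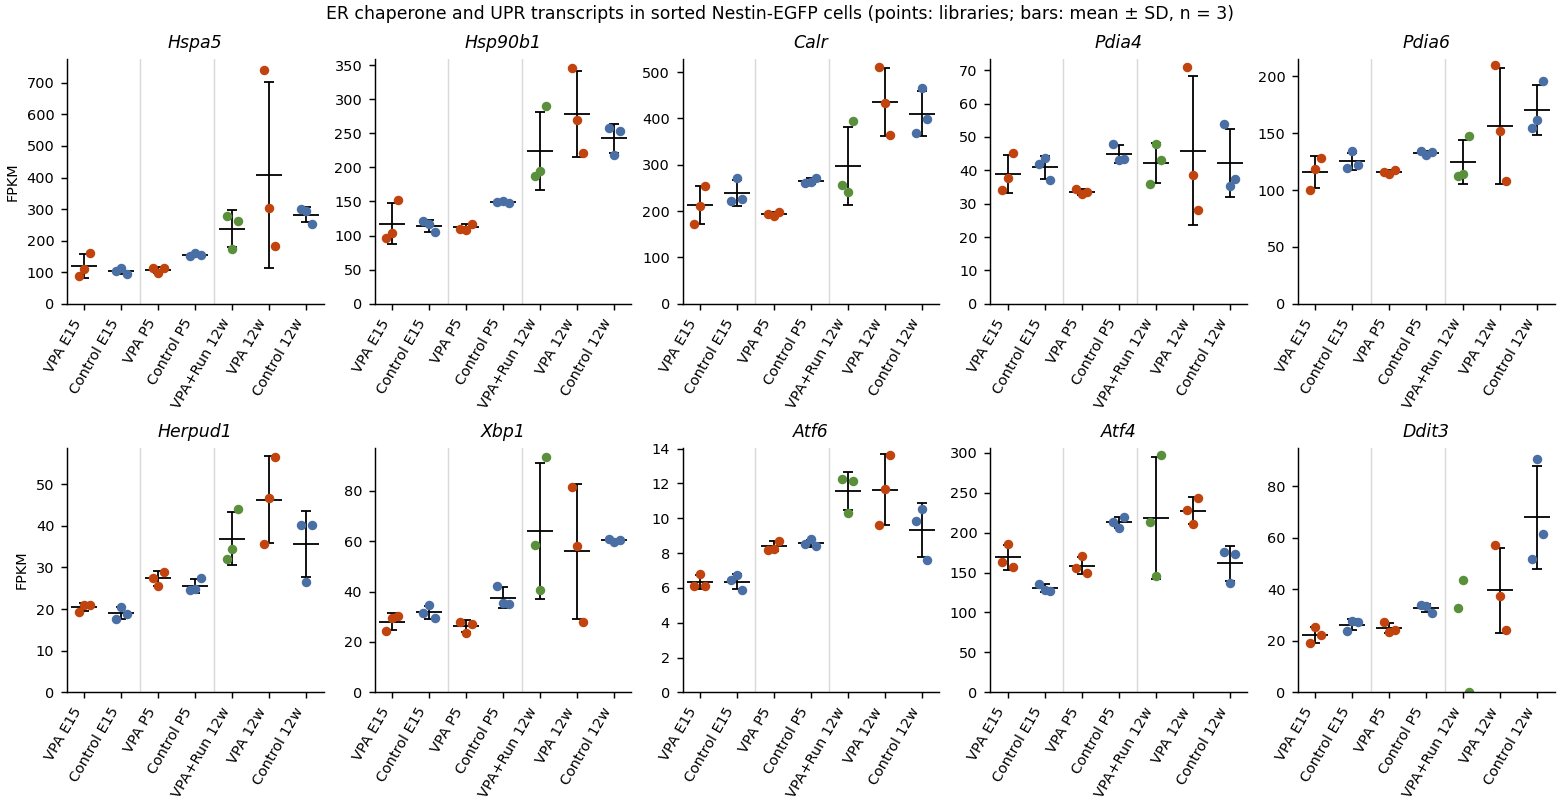
FPKM of the 10 genes in each of 21 libraries, a panel per gene. Points are libraries, bars are mean ± SD of 3 libraries (no bar for Ddit3 in VPA+Run 12w, where 1 library is listed at 0), red is VPA, green is VPA+Run and blue is control. At P5 the VPA points of Hspa5, Hsp90b1, Calr, Pdia4, Pdia6, Xbp1, Atf4 and Ddit3 lie below all control points, while at 12 weeks the points of a group are wide apart.

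The comparison of VPA P5 with Control P5 addresses whether exposure before birth leaves a difference in the young dentate gyrus, days after the last dose. Chaperones and transcription factors were lower in VPA P5: 7 of the 10 genes fell, Hspa5, Hsp90b1, Calr, Pdia4, Xbp1, Atf4 and Ddit3, and none rose. Over all 13328 genes tested, 1.34% fell, 0.9% rose and 2.24% passed in either direction (limma on log2(FPKM + 1), Benjamini-Hochberg adjusted p under 0.05). In 8 of the 10 genes every VPA library was below every control library, against 15.6% of all genes tested. The median log2 fold change of the 10 was -0.41, beside -0.004 for all genes. Because the 10 were chosen with earlier results of these data known, these shares are not independent of the data. In such bulk libraries fewer cells of a type and less RNA per cell cannot be told apart.

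Hspa5 had 114, 97.6 and 112 FPKM in VPA P5 libraries, against 152, 159 and 155 FPKM in Control P5 libraries. All 3 VPA values lay well under the lowest control, and the log2 fold change was -0.52 (SE 0.068, limma adjusted p = 0.0218). Its partner Hsp90b1 had 109.9, 109 and 117 FPKM in VPA P5, against 149, 150.0 and 148 FPKM in Control P5. The control libraries of Hsp90b1 were within 2 FPKM of each other and above all VPA libraries, with a log2 fold change of -0.41 (SE 0.048, limma adjusted p = 0.0173). Calr had 195, 189 and 198 FPKM in VPA P5, against 260.5, 264 and 272 FPKM in Control P5. Its groups were again apart and its adjusted p was the lowest of the 10 (log2 fold change -0.45, SE 0.049, limma adjusted p = 0.0137). The promoter windows of all 3 hold an ERSE, as does that of Pdia6, which did not pass. Those of Pdia4, Xbp1, Atf4 and Ddit3, which fell, hold none. A link between ERSE and these falls was not tested.

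Of the disulphide isomerases, Pdia4 had 34.5, 32.8 and 33.4 FPKM in VPA P5, against 47.8, 43.2 and 43.3 FPKM in Control P5. The groups did not overlap, and the gene fell by 0.40 on the log2 scale (SE 0.056, limma adjusted p = 0.0275). Pdia6, which shares an ERSE with the chaperones, had 115, 114 and 118 FPKM in VPA P5, against 134, 131 and 133 FPKM in Control P5. Its VPA libraries were also all below the controls, but the difference was smaller, -0.20 (95% interval -0.30 to -0.10), and missed the threshold (limma adjusted p = 0.0646). Herpud1 had 27.5, 25.5 and 29.0 FPKM in VPA P5, against 24.5, 24.7 and 27.4 FPKM in Control P5. It was the 1 gene of the 10 with a positive difference, 0.10 (95% interval -0.07 to 0.26, limma adjusted p = 0.435), and its groups overlapped.

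All 3 downstream transcription factors fell. Xbp1 had 27.9, 23.5 and 27.2 FPKM in VPA P5, against 42.4, 35.6 and 34.9 FPKM in Control P5. The groups were apart, with replicate 1 of the controls the highest, and the log2 fold change was -0.51 (SE 0.095, limma adjusted p = 0.0483). Atf4 had 156, 171 and 149.5 FPKM in VPA P5, against 213, 206 and 219 FPKM in Control P5. Its groups were likewise apart, with a log2 fold change of -0.42 (SE 0.063, limma adjusted p = 0.0325). Ddit3 had 27.1, 23.4 and 24.0 FPKM in VPA P5, against 33.8, 33.7 and 30.9 FPKM in Control P5. The lowest control exceeded the highest VPA library, and the log2 fold change was -0.39 (SE 0.071, limma adjusted p = 0.0451). Atf6, the sensor, had 8.19, 8.26 and 8.72 FPKM in VPA P5, against 8.52, 8.80 and 8.41 FPKM in Control P5. The groups overlapped, and the interval of the log2 fold change was -0.18 to 0.12 (limma adjusted p = 0.82).

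How many of the 10 genes passed rested on single libraries. Without Control P5 replicate 1, Control P5 replicate 2 or VPA P5 replicate 2 it was 0, without VPA P5 replicate 3 it was 3, and without Control P5 replicate 3 or VPA P5 replicate 1 it was 7. It was 2 with no filter on low values and 0 when all 21 libraries shared 1 estimate of spread, while the log2 fold changes of the 7 genes stayed between -0.57 and -0.35 in all 12 alternatives.

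**Figure D3:**
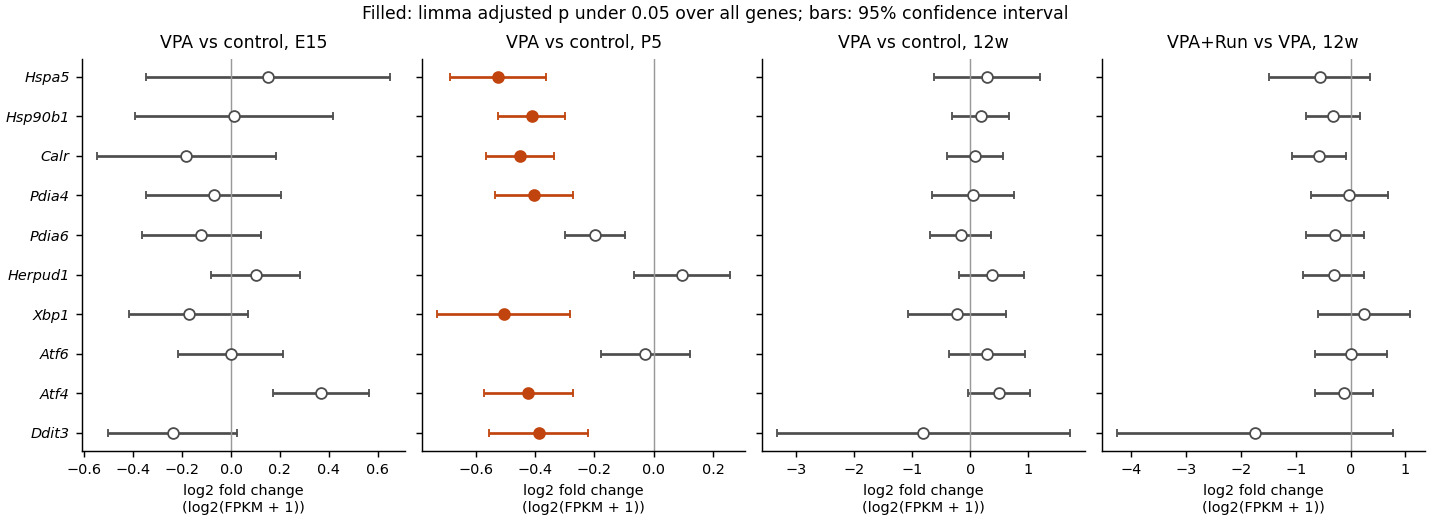
Log2 fold changes of the 10 genes in 4 comparisons, on the log2(FPKM + 1) scale, with 95% confidence intervals. Filled red points passed a limma adjusted p of 0.05 over all genes and open points did not, and the x axes differ between panels. Passing points are in the P5 panel and number 7, and the intervals at 12 weeks are several times wider than at P5.

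Other genes of the ER were read from lists of known function. Among 18 further lumenal chaperones and folding enzymes, 4 fell in VPA P5 and none rose, with a median log2 fold change of -0.11. Sdf2l1, a partner of the Hspa5 cycle, had 8.65 ± 1.46 FPKM in VPA P5 and 16.4 ± 0.648 FPKM in Control P5 (log2 fold change -0.86, limma adjusted p = 0.0195). Manf, a secreted protein kept in the ER with Hspa5, had 36.1 ± 3.36 FPKM in VPA P5 and 52.9 ± 3.10 FPKM in Control P5 (-0.54, limma adjusted p = 0.0292). Hyou1, an exchange factor for Hspa5, had 23.2 ± 0.517 FPKM in VPA P5 and 29.4 ± 1.12 FPKM in Control P5 (-0.33, limma adjusted p = 0.0341). Pdia3, the disulphide isomerase that works with Calr, had 103 ± 1.77 FPKM in VPA P5 and 123 ± 4.01 FPKM in Control P5 (-0.26, limma adjusted p = 0.0418).

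The rest of the pathway gave fewer calls at P5. None of 11 sensors and regulators passed, among them Ern1 and Eif2ak3, which encode IRE1 and PERK, and the smallest p was that of Creb3l2 (log2 fold change -0.35, limma adjusted p = 0.0992). Of 17 genes of ER-associated degradation none passed, with a median of 0.06, and of 16 genes of translocation into the ER none passed, with a median of 0.01. Of 19 tested ATF4 and CHOP targets 3 fell: Ppp1r15a, which encodes the phosphatase subunit GADD34 (-0.59, limma adjusted p = 0.0218), the transcription factor Atf3 (-1.46, 0.0341) and the transcription factor Cebpb (-0.78, 0.0418). The median of these targets was 0.01, and Atf3 is an immediate early gene too. Of 12 tested cytosolic heat shock genes none passed, and the smallest p was that of Dnajb1 (-0.33, limma adjusted p = 0.0714).

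**Figure D4:**
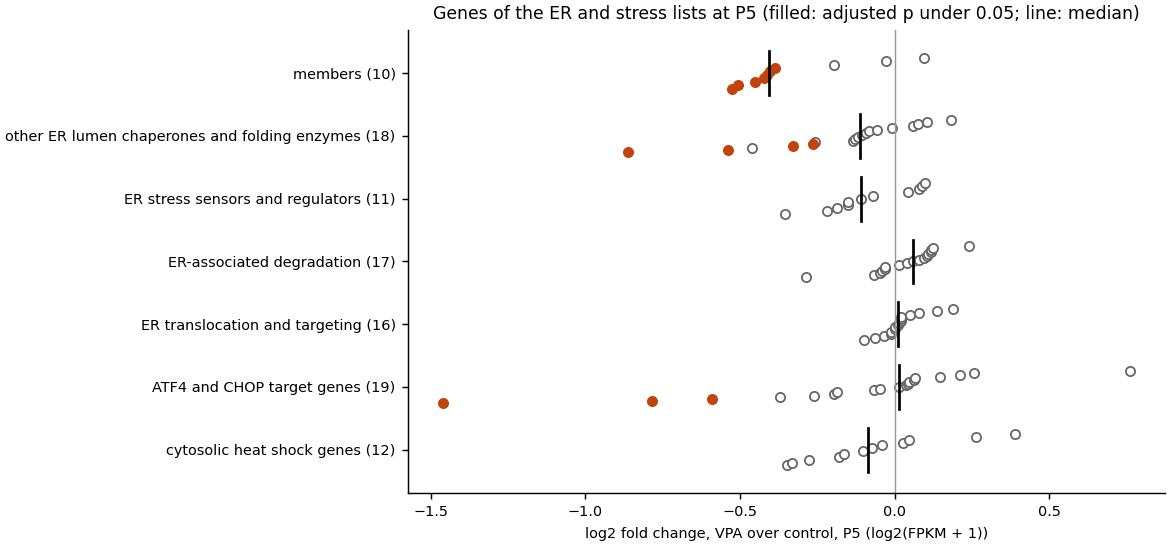
Log2 fold change of VPA P5 over Control P5 for each tested gene of 7 lists. Each point is a gene, filled where the limma adjusted p was under 0.05, the vertical line marks the median of a list, and the number tested is in parentheses. The 10 genes have a median of -0.41, the other lumenal chaperones and the sensors -0.11 each, and the remaining lists between -0.09 and 0.06.

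Genes outside the ER moved in the same libraries. Immediate early genes, which are switched on within minutes of stimulation or cell handling, fell in 19 of 21, and their summed level was 668 to 886 FPKM in VPA P5 against 1848 to 2154 FPKM in Control P5. Stem and progenitor markers fell in 3 of 12, with sums of 2591 to 2694 FPKM in VPA P5 against 2719 to 3115 FPKM in Control P5. Pericyte markers rose in 3 of 10 tested, with sums of 181 to 311 FPKM in VPA P5 against 122 to 136 FPKM in Control P5, and fibroblast markers in 4 of 8, with 101 to 122 FPKM in VPA P5 against 57.3 to 73.7 FPKM in Control P5. Microglia markers rose in 1 of 10 tested, with sums of 47.2 to 68.0 FPKM in VPA P5 against 33.1 to 41.9 FPKM in Control P5. Erythroid markers fell in 2 of 4 tested, with sums of 92.7 to 397 FPKM in VPA P5 against 727 to 1033 FPKM in Control P5. No marker of the pericyte, fibroblast, microglia or immediate early lists was at 0 in a P5 library, and of the erythroid markers Hbb-y was at 0 in all 6. The part of these shifts in the lower ER transcripts was not tested.

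At E15, a day after the last dose, the ER chaperones did not separate VPA from control. None of the 10 genes passed, and 0.0405% of 12345 genes did (limma, 0 higher and 5 lower, and 1301 with an unadjusted p under 0.05). Of the 10, Atf4 was the gene whose groups were apart, in a comparison where 8.19% of all genes had every VPA library above every control library. It had 163, 186 and 157 FPKM in VPA E15 libraries, against 136, 128 and 127 FPKM in Control E15 libraries. The 3 VPA libraries were the higher ones, with a log2 difference of 0.37 (95% interval 0.17 to 0.56), but the limma adjusted p was 0.344. The median of the 10 was -0.04, beside -0.01 for all genes. Immediate early genes, none of which passed, summed to 290.1 to 388 FPKM in VPA E15 against 248 to 300.4 FPKM in Control E15, with overlap. Newborn neuron markers summed to 3601 to 3786 FPKM in VPA E15 against 3834 to 4681 FPKM in Control E15, and pericyte markers to 15.2 to 20.7 FPKM in VPA E15 against 21.7 to 22.1 FPKM in Control E15, both without overlap and with no gene passing. The part of these sums in the Atf4 difference was not tested.

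Hspa5 had 88.0, 109 and 162 FPKM in VPA E15, against 104, 115 and 94.2 FPKM in Control E15. The highest value was in VPA replicate 3, the library with the choroid plexus transcripts, and the groups overlapped (log2 difference 0.15, 95% interval -0.35 to 0.65). Hsp90b1 had 96.9, 103 and 153 FPKM in VPA E15, against 122, 117 and 105 FPKM in Control E15. Replicate 3 was again the highest. Without that library the log2 differences were -0.09 for Hspa5 and -0.19 for Hsp90b1, against 0.15 and 0.01 with it. Calr (-0.18), Pdia6 (-0.12), Pdia4 (-0.07), Xbp1 (-0.17) and Ddit3 (-0.24) had negative log2 differences and Herpud1 (0.10) a positive one, all with overlapping groups and limma adjusted p from 0.5 to 0.835. Atf6 was level, with a 95% interval of -0.22 to 0.21. No gene passed in the lists of other lumenal chaperones, sensors, degradation, translocation, ATF4 and CHOP targets or heat shock proteins. Of the lumenal chaperones, Dnajb9, an Hspa5 cochaperone, had the smallest p, with 20.5 ± 3.47 FPKM in VPA E15 and 16.2 ± 1.12 FPKM in Control E15 (limma adjusted p = 0.466).

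At 12 weeks the libraries within a group were far apart and no gene in the genome passed for VPA against control (0 of 13847 by limma, 885 with an unadjusted p under 0.05). None of the 10 genes therefore passed, and their median log2 difference was 0.13, beside -0.006 for all genes. Hspa5 had 742, 302 and 183 FPKM in VPA 12w, against 299, 294 and 254 FPKM in Control 12w. The VPA libraries lay on both sides of the controls, and replicate 1 was far above them all. Without that library the log2 difference was -0.26, against 0.29 with it. Calr moved to -0.04 without it, against 0.08, and Pdia4 to -0.32, against 0.04.

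Atf4 was again the gene with separate groups, where 7.83% of all genes had every VPA library above every control. It had 228, 211 and 244 FPKM in VPA 12w, against 175, 137 and 174 FPKM in Control 12w. All VPA libraries were the higher ones, with a log2 difference of 0.50 (95% interval -0.04 to 1.03, limma adjusted p = 0.772). Ddit3 had 57.0, 37.5 and 24.2 FPKM in VPA 12w, against 51.9, 90.3 and 61.2 FPKM in Control 12w. The groups overlapped, and the interval, -3.33 to 1.72, was the widest of the 10. Herpud1 had 35.6, 46.7 and 56.6 FPKM in VPA 12w, against 40.2, 26.4 and 40.2 FPKM in Control 12w. It also overlapped (log2 difference 0.37, limma adjusted p = 0.854). Xbp1 had 81.6, 58.2 and 28.0 FPKM in VPA 12w, against 60.8, 59.9 and 60.3 FPKM in Control 12w. Its controls were within 1 FPKM of each other, while the VPA libraries ran from well below to above them.

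Within VPA 12w, replicate 1 had the highest value of Hspa5, Hsp90b1, Calr, Pdia4, Pdia6, Xbp1 and Ddit3 and replicate 3 the lowest, whereas for Herpud1 and Atf6 replicate 3 was the highest and replicate 1 the lowest. Of the other sensors, Eif2ak3, which encodes PERK, had 17.7 ± 3.39 FPKM in VPA 12w and 9.42 ± 0.620 FPKM in Control 12w (log2 difference 0.83, limma adjusted p = 0.649). Among the ATF4 and CHOP targets, the growth factor Vegfa had 158 ± 42.5 FPKM in VPA 12w and 67.6 ± 15.8 FPKM in Control 12w (1.20, limma adjusted p = 0.45). Neither passed, nor did any other gene of these lists. Other groups of genes differed in sum between the same libraries, with no gene passing: oligodendrocyte markers were at 1526 to 2577 FPKM in VPA 12w against 1208 to 1505 FPKM in Control 12w, endothelial markers at 65.2 to 148 FPKM in VPA 12w against 161 to 388 FPKM in Control 12w, and immediate early genes at 3304 to 3585 FPKM in VPA 12w against 2268 to 3119 FPKM in Control 12w. Their part in the values of the 10 genes was not tested.

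Running was compared in VPA mice, VPA+Run 12w against VPA 12w. No gene in the genome passed (0 of 13847 by limma, 1566 with an unadjusted p under 0.05), and so none of the 10 did. Their log2 differences were negative in 9 of 10, with a median of -0.30, beside -0.05 for all genes. Among the 9, those of Atf6 (-0.0008) and Pdia4 (-0.02) were near 0. Those of Ddit3, Atf4, Atf6 and Pdia4 turned sign in at least 1 fit without 1 library. Calr had 256, 241 and 395 FPKM in VPA+Run, against 511, 434 and 365 FPKM in VPA. The lower values were in VPA+Run replicates 1 and 2, while replicate 3 fell among the VPA libraries, and the log2 difference was -0.58 (95% interval -1.07 to -0.09, limma adjusted p = 0.365). Hspa5 had 279.6, 173 and 263 FPKM in VPA+Run, against 742, 302 and 183 FPKM in VPA, with overlapping groups (-0.56, 95% interval -1.48 to 0.36). Leaving out 1 library moved this difference to between -1.02 and -0.01, the latter without VPA 12w replicate 1. Ddit3 had 32.7, 43.4 and 0 FPKM in VPA+Run, against 57.0, 37.5 and 24.2 FPKM in VPA. Replicate 3 of the runners is listed at 0, and it decided the value: the log2 difference was -1.74 with that library and 0.01 without it. None of the 10 genes had all VPA+Run libraries on 1 side of all VPA libraries, where 6.98% of all genes had them above and 8.48% below. Xbp1 had the positive difference (0.24, 95% interval -0.60 to 1.08).

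Immediate early genes had negative differences in 21 of 21, with 0 of 21 past the threshold, with sums of 1724 to 2430 FPKM in VPA+Run against 3304 to 3585 FPKM in VPA. Oligodendrocyte markers summed to 969 to 1073 FPKM in VPA+Run against 1526 to 2577 FPKM in VPA, and microglia markers to 55.5 to 113 FPKM in VPA+Run against 131 to 147 FPKM in VPA. Other sums were higher in VPA+Run, without overlap. Stem and progenitor markers were at 1562 to 2067 FPKM in VPA+Run against 973 to 1117 FPKM in VPA. Astrocyte markers were at 607 to 806 FPKM in VPA+Run against 395 to 518 FPKM in VPA. Newborn neuron markers were at 1576 to 2115 FPKM in VPA+Run against 1299 to 1548 FPKM in VPA. In VPA+Run up to 7 immediate early genes and up to 7 microglia markers of a library were at 0. The part of these in the differences above was not tested. Hyou1 was the lumenal chaperone with the smallest p, at 17.1 ± 2.55 FPKM in VPA+Run and 30.9 ± 15.4 FPKM in VPA (log2 difference -0.72, limma adjusted p = 0.453).

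VPA+Run 12w was also set against Control 12w, with which the comparison above shares the runners. None of the 10 genes passed (0 of 13847 genes by limma, 1074 with an unadjusted p under 0.05), and their median was -0.07, as was that of all genes. Every VPA+Run library was below every control for 2 of the 10, Pdia6 and Ddit3, against 7.24% of all genes. Pdia6 had 112, 114 and 147 FPKM in VPA+Run, against 154, 161 and 195 FPKM in Control (log2 difference -0.45, 95% interval -0.98 to 0.08). For Ddit3 the control libraries had 51.9, 90.3 and 61.2 FPKM, above even the highest runner.

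**Figure D5:**
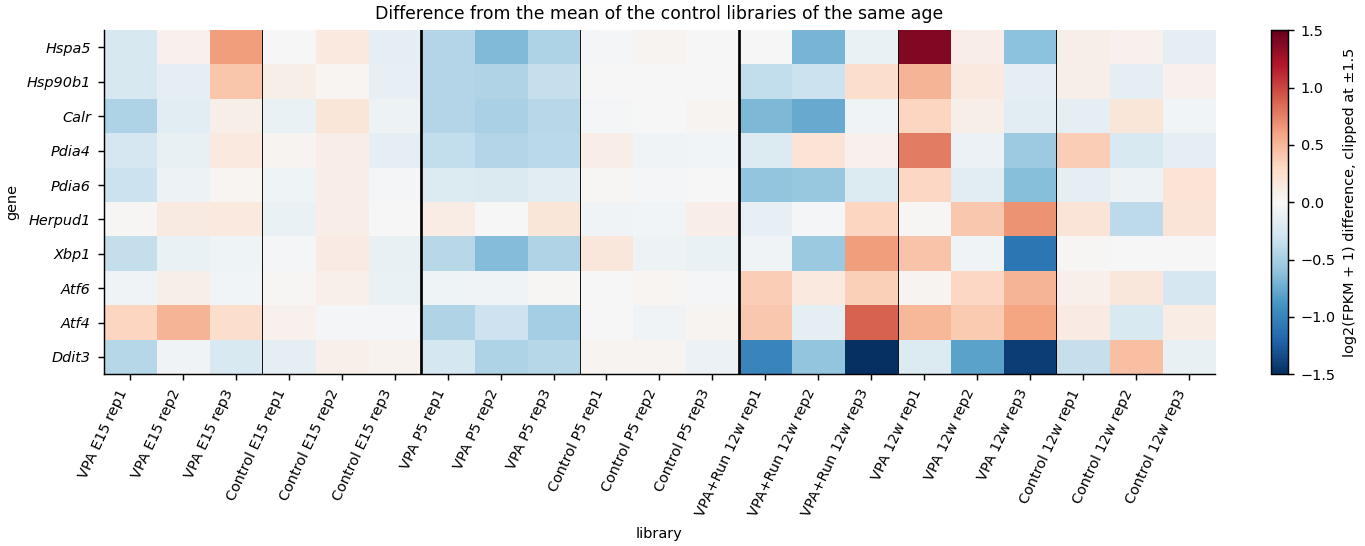
Difference of each library from the mean of the control libraries of its age, as log2(FPKM + 1), for the 10 genes (rows) in 21 libraries (columns, VPA left of control within an age). Blue is lower and red is higher, clipped at 1.5. The VPA P5 columns are evenly blue except in Atf6 and Herpud1, while single columns stand out in VPA E15 replicate 3 and VPA 12w replicate 1.

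Across ages, the controls were compared in a fit of all 21 libraries. Between Control P5 and Control E15 the tissue changed as well as the age, and 20.7% of 14662 genes passed, with 14.4% of the genes tested higher at P5. Atf4 was the 1 gene of the 10 to pass, with a log2 fold change of 0.70 (SE 0.17, limma adjusted p = 0.00685), and all Control P5 libraries lay above all Control E15 libraries. The other 9 differences were also positive, and in 7 of the 10 genes the groups did not overlap, in a contrast where 44.3% of all genes had every P5 library above. The median of the 10 was 0.35, beside 0.14 for all genes, a shift of all genes that was 0.05 under median-of-ratios scaling, where Pdia6 turned to -0.04. In a fit of these 6 libraries alone, Hspa5, Hsp90b1, Ddit3, Atf6 and Herpud1 passed as well.

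Between Control 12w and Control P5, both dentate gyrus, 12.6% of genes passed, with 7.26% of the genes tested higher at 12 weeks. Hsp90b1 rose by 0.70 on the log2 scale (SE 0.18, limma adjusted p = 0.0168) and Calr by 0.62 (SE 0.17, limma adjusted p = 0.0255). Ddit3 had the largest difference of the 10, 0.99, but with a 95% interval of -0.87 to 2.85 it did not pass (limma adjusted p = 0.542). Hspa5 had a difference of 0.85, Xbp1 of 0.67, Herpud1 of 0.44 and Pdia6 of 0.35, none past the threshold (limma adjusted p = 0.116, 0.155, 0.11 and 0.222). Atf6 (0.10) and Pdia4 (-0.11) differed least, with overlapping groups. Every Control 12w library was above every Control P5 library in 6 of the 10, Hspa5, Hsp90b1, Calr, Ddit3, Xbp1 and Pdia6, against 18.4% of all genes. Atf4 went the other way, with 175, 137 and 174 FPKM in Control 12w, against 213, 206 and 219 FPKM in Control P5. All its adult values were below every P5 value, as were those of 19.1% of all genes (-0.40, limma adjusted p = 0.156). Marker transcripts of other cell types also differed in these libraries: pericyte markers rose in 11 of 11, with sums of 1059 to 2266 FPKM in Control 12w against 122 to 136 FPKM in Control P5, and endothelial markers in 8 of 8, with 161 to 388 FPKM in Control 12w against 5.37 to 9.13 FPKM in Control P5. Oligodendrocyte markers rose in 6 of 8, microglia markers in 4 of 12 and fibroblast markers in 4 of 8. Stem and progenitor markers summed to 1019 to 1938 FPKM in Control 12w against 2719 to 3115 FPKM in Control P5. Newborn neuron markers summed to 1937 to 2252 FPKM in Control 12w against 2279 to 2631 FPKM in Control P5. Astrocyte markers rose in 3 and fell in 3 of 7, and erythroid markers fell in 3 of 4 tested. Their part in the adult levels was not tested, and the table format, which also differed at 12 weeks, cannot be told apart from age. None of the 10 passed without Control P5 replicate 1, 2 or 3 or without Control 12w replicate 3, and 5 passed in a fit of these 6 libraries alone.

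Of the 10 genes, Atf4 was the one whose VPA difference changed most between ages. Its log2 difference between VPA and control was 0.37 at E15, -0.42 at P5 and 0.50 at 12 weeks, and at each age all 3 VPA libraries lay on 1 side of the controls. The difference between P5 and E15 was -0.79 (95% interval -1.31 to -0.27) and that between 12 weeks and P5 was 0.92 (95% interval 0.40 to 1.44). Neither passed in the fit of all 21 libraries (limma adjusted p = 1 and 0.132, with 0.0955% and 0.389% of 14662 genes passing). Both passed where the fit held only the 4 groups concerned (limma adjusted p = 0.00881 and 0.0346). Between E15 and P5 the tissue changed with age, from forebrain to dentate gyrus, and at 12 weeks the table format differed. Neither can be told apart from age in these contrasts.

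None of the other 9 genes passed for a change of the VPA difference between ages in either fit. For Hspa5 the change was -0.68 between P5 and E15 (95% interval -1.69 to 0.33) and 0.82 between 12 weeks and P5 (95% interval -0.20 to 1.83). For Hsp90b1 these were -0.42 and 0.59, and for Calr -0.27 and 0.53. The VPA difference of the chaperones is thus not shown to change with age, and both contrasts share the P5 libraries.

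Which genes ran most like Hspa5 was described over the 21 libraries, with log2(FPKM + 1) standardised within each age, among 10020 genes averaging at least 5 FPKM. Hsp90b1 had the highest Pearson r with Hspa5 of all of them, 0.86. Pdia4 ranked 4 (r = 0.81), Pdia6 8 (0.77), Calr 12 (0.75) and Xbp1 27 (0.69). The stress transcription factors Atf4 and Ddit3 ranked 942 and 969 (both r = 0.36), and Atf6 (0.05) and Herpud1 (-0.06) had values near 0. The 5 genes outside the set with the highest r were Atp2a2 (0.83), which encodes the calcium pump that fills the ER, Manf (0.82), Tex2 (0.78), Nfya (0.78), which encodes a subunit of NF-Y, and Hyou1 (0.78). The values depend on the standardising: without it, so that ages differ as well, r was 0.63 for Atf6, 0.66 for Herpud1, 0.88 for Xbp1, 0.94 for Hsp90b1, 0.24 for Hyou1 and -0.0008 for Nfya. These points share libraries, the VPA P5 difference and VPA 12w replicate 1, so the r values describe these libraries only.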

How the data were processed

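GFP-positive cells were sorted, polyadenylated RNA was isolated with magnetic beads and libraries were sequenced on an Illumina HiSeq, per the labels' protocols. The submitters' processing notes name TopHat and Bowtie2, Cufflinks and Cuffdiff, and the build mm10, with no roles; versions are not given in the sources used here. Each deposited table holds 1 FPKM value per gene symbol. The 12-week headers name FPKM, while the E15 and P5 headers name only the sample, and their unit was inferred from equal gene lists and column sums (465610 to 506183 at E15, 475775 to 492041 at P5, 482753 to 574594 at 12 weeks). Read counts were not used here, so depth is unknown and no counting interval is given.

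FPKM were taken as log2(FPKM + 1) from the deposited values, a scale on which the added 1 understates the change of low genes. Genes reaching 1 FPKM in 3 or more libraries of a fit were tested with limma 3.58.1 (R 4.3.3, intensity trend), and p-values were adjusted by Benjamini-Hochberg over all tested genes at a threshold of 0.05. Fits held 6 libraries at E15, 6 at P5 and 9 at 12 weeks, and 21 for contrasts between ages. Confidence intervals are at 95% and unadjusted.

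The 10 genes and the other lists were chosen with earlier results of these data known. The text names all 10 genes, up to 4 passing genes of each list per comparison, or up to 2 with the smallest p where none passed, and the 5 genes most like Hspa5. Alternatives were median-of-ratios scaling, a replicate block, a pseudocount of 0.1, a filter set at 5 FPKM or left out, other libraries in the fit, and leaving out each library. At E15 same-numbered VPA and control libraries deviated together, with correlations of 0.12, 0.11 and 0.17. The labels do not pair them, and the E15 differences, intervals and p-values above come from a fit without pairing. Pairing by number was used only in the replicate block, which changed no call of the 10 genes there. Promoters are RefSeq windows and coordinates GENCODE vM21; Ddit3 has a second, overlapping record there. The fits were tested on simulated data.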

Additional observations from a re-analysis of the deposited data

Results flagged for a closer look

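Atf4 stood out because its difference between VPA and control had opposite signs at neighbouring ages. Every VPA library lay on 1 side of the controls at each age. Tissue also differed between E15 and P5, and table format between P5 and 12 weeks, and neither can be told apart from age. The VPA difference at P5 minus that at E15 was -0.79 on the log2 scale, made of -0.42 at P5 and 0.37 at E15. The VPA difference at 12 weeks minus that at P5 was 0.92, made of 0.50 and -0.42. The differences themselves were tested as interactions: over 21 libraries the limma adjusted p was 1 and 0.132 (unadjusted 0.00522 and 0.00169), and in fits of the 4 groups concerned 0.00881 and 0.0346.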

How the results depend on the processing

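The 7 calls at P5 kept their direction in all 12 alternatives but not their side of the threshold: of the 10 members of the set, those passing were 2 with no filter, 0 with all 21 libraries and 0 to 7 without 1 library. The numbers did not pair libraries at P5 (same-number correlations 0.04, 0.05 and -0.06) or at 12 weeks; with a replicate block, no member passed at P5, and 20 genes rose and 50 fell. Genes passing at P5, higher and lower, were 5 and 31 with no filter, 69 higher at 5 FPKM, 2 and 13 with all 21 libraries, and 1 to 273 and 17 to 295 without 1 library. At E15 they were 1 higher with a pseudocount of 0.1 and 3 lower with no filter. They were 1 and 2 with all libraries, and 0 to 7 and 0 to 11 without 1 library. The replicate block, which paired same-numbered libraries, left 4 lower. For VPA against control at 12 weeks they were 1 higher with only those groups and 0 to 1 either way without 1 library. For VPA+Run against VPA they were 3 lower with a pseudocount of 0.1, 1 lower with no filter, 2 and 4 at 5 FPKM, 1 and 1 with only those groups, and 0 to 4 and 0 to 33 without 1 library; against Control, 0 to 2 and 0 to 10. Control P5 against E15 gave 5265 higher, 2768 lower and 6 members with only those groups, and 1618 to 1778 and 644 to 774 without 1 library. Control 12w against P5 gave 5 members with only those groups, and 731 to 1194, 400 to 1094 and 0 to 2 members without 1 library. For the change of the VPA difference from E15 to P5, 11 and 19 passed with no filter, 51, 106 and 1 member with only those groups, and 2 to 4 and 6 to 19 without 1 library. From P5 to 12 weeks, 43 fell with no filter, 13 with the block, 37 and 1 member with only those groups, and 8 to 118 and 2 to 106 passed without 1 library. The cause was not tested, except that leaving out a library leaves fewer samples and no filter tests more genes.

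Log2 differences that changed sign without 1 library ran, for VPA against control at E15 Hspa5 -0.086 to 0.35, Hsp90b1 -0.19 to 0.14, Atf6 -0.049 to 0.036, Pdia4 -0.18 to 0.021; for VPA against control at 12 weeks Hspa5 -0.26 to 0.75, Calr -0.039 to 0.20, Xbp1 -0.57 to 0.19, Pdia4 -0.32 to 0.34, Pdia6 -0.40 to 0.075. They ran, for VPA+Run against VPA Ddit3 -2.72 to 0.014, Xbp1 -0.18 to 0.57, Atf4 -0.37 to 0.15, Atf6 -0.12 to 0.11, Pdia4 -0.32 to 0.34; for VPA+Run against Control Xbp1 -0.30 to 0.29, Pdia4 -0.094 to 0.20, Herpud1 -0.14 to 0.16. They ran, for Control 12w against P5 Pdia4 -0.30 to 0.0026; for the change from E15 to P5 Atf6 -0.064 to 0.021, Pdia6 -0.17 to 0.0027, Herpud1 -0.057 to 0.045; for that from P5 to 12 weeks Xbp1 -0.061 to 0.70, Pdia6 -0.20 to 0.27. Under median-of-ratios scaling Pdia6 turned to -0.035 for Control P5 against E15 and Herpud1 to 0.0013 for the change from E15 to P5. Of 1200 values of single members under alternatives, 1087 kept direction and side, 55 lost the threshold, 11 gained it and 47 turned sign, none of the last past the threshold. Depth is unknown, and at 12 weeks the spread between libraries limits what could be detected.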

Other observations

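Between Control 12w and Control P5, 6 of 13 cytosolic heat shock genes rose and none fell, where 7.26% of all genes tested rose. Lists outside protein folding held risers too in this contrast, among them 7 of 21 immediate early genes, 11 of 11 pericyte markers and 8 of 8 endothelial markers. Hspb1, a small heat shock protein, had 50.8 ± 5.60 FPKM in Control 12w and 0.351 ± 0.121 FPKM in Control P5, and Hspa1a, an inducible Hsp70, had 35.7 ± 15.3 FPKM in Control 12w and 1.55 ± 0.192 FPKM in Control P5. Their log2 fold changes were 5.26 and 3.77. Hspa1a and its near copy Hspa1b may share reads. In the same contrast 4 of 16 genes of protein entry into the ER rose, among them Sec62 with 63.1 ± 9.91 FPKM in Control 12w and 36.1 ± 1.79 FPKM in Control P5, and the signal peptidase subunit Sec11c with 84.5 ± 26.7 FPKM in Control 12w and 40.4 ± 1.94 FPKM in Control P5. Of 17 genes of ER-associated degradation 1 rose, a share near that of all genes: Os9, a lectin, with 64.8 ± 9.57 FPKM in Control 12w and 38.9 ± 1.25 FPKM in Control P5.

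Between Control P5 and Control E15, 5 of 18 other lumenal chaperones rose, where 14.4% of all genes tested rose. Txndc5, a disulphide isomerase, had 30.4 ± 1.44 FPKM in Control P5 and 14.5 ± 1.14 FPKM in Control E15, and the prolyl isomerase Ppib had 425 ± 16.9 FPKM in Control P5 and 232 ± 25.2 FPKM in Control E15. Of 19 tested ATF4 and CHOP targets 8 rose and 1 fell; Phgdh, the entry enzyme of serine synthesis, had 33.3 ± 4.0 FPKM in Control P5 and 7.56 ± 0.620 FPKM in Control E15. Of 16 genes of entry into the ER 3 rose, a share near that of all genes, and among them Ssr3, a subunit of the translocon-associated complex, had 148 ± 6.83 FPKM in Control P5 and 71.7 ± 3.31 FPKM in Control E15.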
